A study of Rattus norvegicus with 6 samples.

Results

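The interferon response of the cultured rat lens was followed through 6 genes, Ifi27, B2m, Isg15, Irf1, Ifitm3 and Tap1. The members were every probe set whose single gene symbol equalled one of these names. There were 7 such probe sets among the 19086 on the array that were linked to a gene, with 1 for each gene and 2 for Ifitm3, and the probe sets with 1 symbol covered 18166 genes in all. The choice used measured values: Ifi27 and B2m lay low on the AZD0156 array and not on the KU55933 array, and the question was whether the other 4 genes followed them. For Ifi27 and B2m the values on the inhibitor arrays are therefore descriptions, given with no test.

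RNA was taken from lenses of 6-week-old male Sprague-Dawley rats kept in ex vivo culture, and was hybridised to 6 GeneChip Rat Gene 2.0 ST arrays. Lenses on 1 array were cultured in 30 mM galactose to which AZD0156 was added at 20 µM for the last 3 of 6 days, and lenses on 1 array were given KU55933 in the same way at 20 µM. Both compounds inhibit Atm, a kinase activated by DNA breaks, and were dissolved in DMSO. A further 3 arrays held lenses in 30 mM galactose with DMSO alone, and 1 array held the Control, cultured without galactose, for which sterile water is the vehicle that the methods name. The Control was cultured for 6 days according to the methods and for 4 days according to the scheme, so that galactose, DMSO and culture time cannot be told apart in a comparison with it. The sources used here do not give the number of lenses per array, nor whether the galactose arrays came from separate animals, and the p-values measure only the spread between those 3 arrays. In whole lenses, fewer cells of a type and less RNA per cell cannot be told apart.

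Interferons are secreted proteins that bind receptors on the cell surface and activate Janus kinases, which phosphorylate STAT proteins. STAT complexes and interferon regulatory factors then bind short DNA elements, the interferon-stimulated response element (ISRE) and the gamma-activated site (GAS), and switch on interferon-stimulated genes. Many of these genes restrict viruses or load peptides onto class I molecules for display to T cells. The lens has no blood vessels and is enclosed in a capsule, and in the adult its nucleated cells are the anterior epithelium and the outer fibre cells.

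The response elements were looked for in the promoters of the 6 genes, a feature that does not come from the measured values. Genes named for an interferon response hold an ISRE core more often than others, as given below. The matches are therefore not independent of the choice and do not test it. Sequences came from RefSeq on the GRCr8 build, as windows of 250 bases before to 50 bases after the start of each gene, and 5 of the 6 genes were matched. The ISRE core was searched as GAAANNGAAA on both strands and GAS as TTCNNNGAA, which reads the same on both strands, and in the 5 genes no match of one overlapped a match of the other. The 250 bases before the start of Ifi27 (chr6:128355062-128355311, plus strand) and of B2m (chr3:129549080-129549329, plus strand) are shown because these 2 genes carry the pattern, with the matches in capitals.

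Ifi27: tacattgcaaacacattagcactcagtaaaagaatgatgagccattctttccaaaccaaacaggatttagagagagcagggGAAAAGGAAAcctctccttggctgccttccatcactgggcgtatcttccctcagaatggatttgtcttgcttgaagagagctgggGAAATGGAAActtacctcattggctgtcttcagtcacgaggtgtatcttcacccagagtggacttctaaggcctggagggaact

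B2m: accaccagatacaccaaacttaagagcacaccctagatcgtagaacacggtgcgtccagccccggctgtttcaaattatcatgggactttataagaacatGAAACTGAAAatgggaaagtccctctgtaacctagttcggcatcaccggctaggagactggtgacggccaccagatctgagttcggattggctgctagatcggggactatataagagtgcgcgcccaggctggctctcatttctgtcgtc

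Stretches of 60 bases around the matches of 3 other genes are given for comparison, from Irf1 (chr10:38417767-38417826, plus strand), Ifitm3 (chr1:205541763-205541822, minus strand) and Tap1 (chr20:4668630-4668689, minus strand). Capitals mark a GAS match in Irf1, an ISRE core and then a GAS match in Ifitm3, and an ISRE core on the opposite strand in Tap1.

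Irf1: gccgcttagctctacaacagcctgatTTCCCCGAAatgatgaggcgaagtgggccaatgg

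Ifitm3: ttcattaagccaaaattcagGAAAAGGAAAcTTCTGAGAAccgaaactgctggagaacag

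Tap1: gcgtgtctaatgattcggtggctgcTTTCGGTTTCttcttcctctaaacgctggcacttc

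Ifi27 held 2 ISRE cores, GAAAAGGAAA at -169 to -160 and GAAATGGAAA at -84 to -75 relative to its start. B2m held 1, GAAACTGAAA at -150 to -141. Ifitm3 had the same 10 letters as the upstream match of Ifi27 at -44 to -35, followed by the GAS match TTCTGAGAA at -33 to -25. The Tap1 match lay at -121 to -112 and reads GAAACCGAAA on its own strand. Irf1 had no ISRE core in its window and 1 GAS match, TTCCCCGAA, at -142 to -134. An ISRE core was present in 3.77% of all 27457 promoters of this length and a GAS match in 8.68%. Among interferon-induced effector genes, 34 of 67 promoters (50.7%) held an ISRE core, and among class I antigen presentation genes 11 of 37 (29.7%). A match is a run of letters and not a measured binding site.

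**Figure D1:**
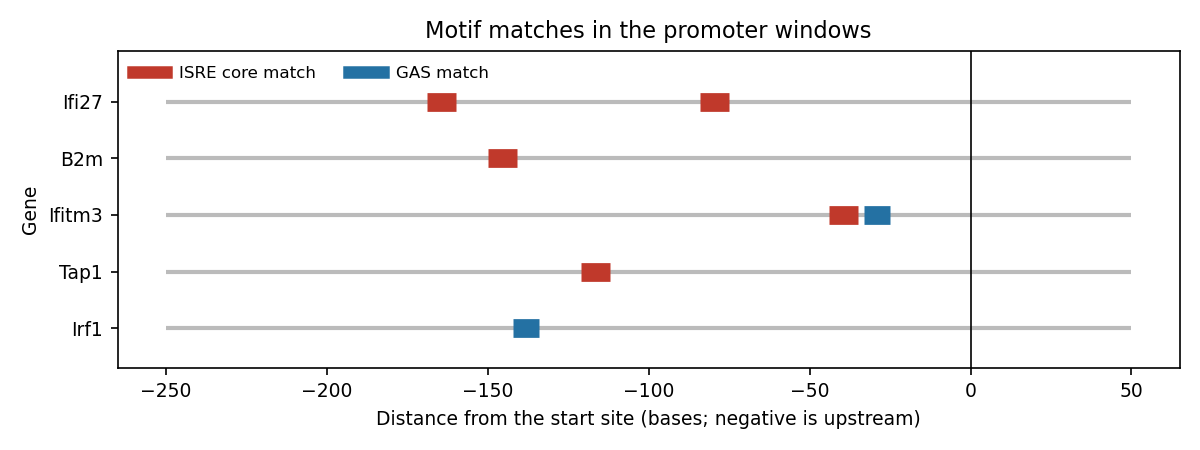
Positions of the ISRE core matches (red) and GAS matches (blue) in the promoter windows of 5 genes. The x axis is the distance in bases from the start of the gene, and each grey line is a window of 250 bases before to 50 bases after the start. Ifi27 carries 2 ISRE cores, B2m, Ifitm3 and Tap1 carry 1 each, and Irf1 carries a GAS match only.

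The signal is the deposited log2 value of a probe set, so that a difference of 1 is a doubling of the signal. Probe sets under 5 on every array were left out of the main fit, which kept 5784. Only Ifi27 and B2m passed among the 6 genes. The 5 probe sets of Isg15, Irf1, Ifitm3 and Tap1 were all below 5 on every array, and their tests come from a second fit over all 19086 gene-linked probe sets. Median signals over the 5784 probe sets were 5.55 with AZD0156, 5.79 with KU55933, 5.69 to 5.81 on the galactose arrays and 5.79 in the Control. AZD0156 thus sat 0.18 below galactose at the median difference of these probe sets, and the same median was -0.02 over all 19086. Lens identity was clear, with Cryab, a crystallin, at 13.05 to 13.25 on all 6 arrays. The defining markers of immune cells stayed under the filter: 14 of 15 were matched and 0 reached 5 on any array. The pan-leukocyte gene Ptprc stayed between 1.63 and 2.01, but other markers came nearer to 5. Fcer1g ran from 3.14 with AZD0156 to 4.92 in the Control, and Lyz2 from 2.04 with KU55933 to 4.64 in the Control. Cd68 reached 4.74 and Cd14 4.71, each on a galactose array. The mean of the 14 markers was 2.60 with AZD0156, 2.53 with KU55933, 2.63 to 2.99 with galactose and 2.81 in the Control.

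Ifi27 encodes a small hydrophobic protein strongly induced by type I interferon. Its log2 signal was 4.57 with AZD0156, 7.16 with KU55933, 7.50, 6.85 and 6.91 on the 3 galactose arrays and 6.80 in the Control. AZD0156 alone stood apart: the other 5 arrays lay within a range of 6.80 to 7.50. The AZD0156 array was 2.51 below the galactose mean of 7.09 ± 0.358 (SD, n = 3), which is 5.71-fold lower in signal and the third lowest difference among the 5784 probe sets. KU55933 differed from the same mean by 0.08. The gap between AZD0156 and KU55933 was -2.59, the lowest of all 5784. In order of level, KU55933, galactose and the Control followed each other with gaps smaller than the galactose SD, and AZD0156 came last. Galactose against the Control gave 0.28 (SE 0.318, 95% interval -0.47 to 1.03), with an adjusted p of 0.640 in limma. The galactose arrays also enter the comparison that chose this gene.

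B2m encodes beta-2-microglobulin, the light chain shared by class I molecules. Its log2 signal was 8.45 with AZD0156, 9.77 with KU55933, 9.42, 9.41 and 9.72 with galactose and 8.31 in the Control. Here the AZD0156 and Control arrays formed the low pair, and the KU55933 array lay above all 3 galactose arrays. AZD0156 was 1.07 below the galactose mean of 9.52 ± 0.172 (SD, n = 3), a 2.10-fold lower signal, and its difference ranked at 137 of 5784 from the lowest. After centring of the arrays on their medians the gap was -0.87. AZD0156 and the Control differed by 0.14, less than the galactose SD, whereas KU55933 was 0.25 above galactose and 1.32 above AZD0156.

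The galactose mean of B2m stood 1.21 above the Control on the log2 scale, or 2.31-fold (SE 0.249, 95% interval 0.61 to 1.80). All 3 galactose arrays were above the Control array. The same galactose arrays also entered the comparison that chose the gene. The adjusted p of 0.0575 in limma missed the threshold of 0.05, which 2.87% of the 5784 probe sets passed, so that 0 of the 2 tested members were called. The call depended on the processing: the adjusted p was 0.0406 after arrays were centred on their medians, 2.23e-09 without galactose replicate 1 and 0.194 without galactose replicate 3, the last 2 being the lowest and highest of the 8 alternatives. In units of the galactose SD, the Control array stood at -6.99 from the galactose mean for B2m and at -0.79 for Ifi27.

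**Figure D2:**
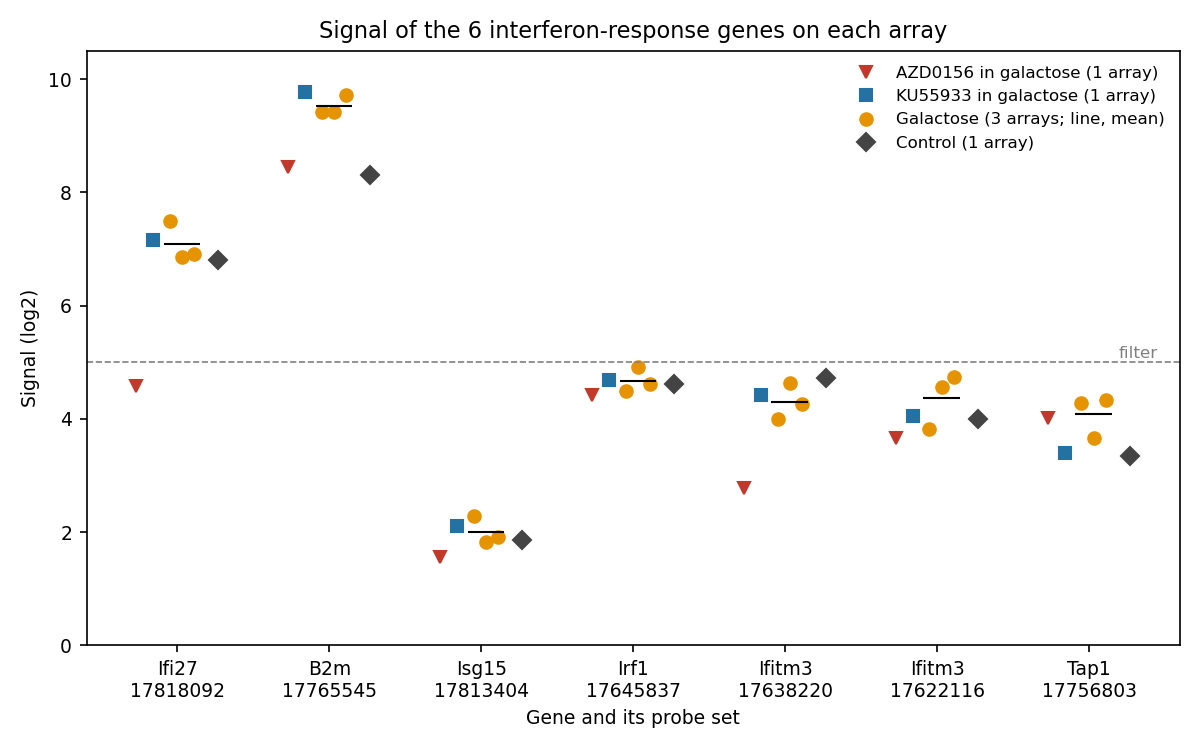
Log2 signal (y axis) of the 7 probe sets of the 6 genes (x axis, with probe set numbers) on the 6 arrays, with the AZD0156, KU55933 and Control arrays as single points and the 3 galactose arrays as points with their mean as a line. Ifi27 is low only on the AZD0156 array at 4.57, B2m is low on the AZD0156 and Control arrays at 8.45 and 8.31, and the other 5 probe sets lie under the dashed filter line at 5.

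Ifitm3, a membrane protein that hinders the entry of enveloped viruses, came closest to the Ifi27 pattern, in 1 of its 2 probe sets. Probe set 17638220 read 2.78 with AZD0156, 4.41 with KU55933, 4.0, 4.63 and 4.27 with galactose and 4.72 in the Control. The AZD0156 array lay 1.22 below the lowest galactose array, KU55933 was within the galactose range and the Control just above it. The difference between AZD0156 and galactose was -1.52 (95% interval -2.21 to -0.83), with an unadjusted p of 0.00109 and an adjusted p of 0.330 in limma over 19086 probe sets. KU55933 differed from galactose by 0.11, and AZD0156 from KU55933 by -1.63 (95% interval -2.48 to -0.79, adjusted p = 0.520). AZD0156 lay 1.94 below the Control (adjusted p = 0.156), and galactose 0.42 below it.

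Probe set 17622116 of the same gene read 3.66 with AZD0156, 4.04 with KU55933, 3.82, 4.55 and 4.73 with galactose and 3.99 in the Control. Its AZD0156 value was also the lowest of the 6, but by 0.16 only from the nearest galactose array. The difference from galactose was -0.71 (95% interval -1.57 to 0.15, adjusted p = 0.570) and from KU55933 -0.38 (adjusted p = 0.879). The 2 probe sets disagreed in direction for galactose against the Control, at -0.42 and 0.37. Some Ifitm genes are close copies of each other, and signal from such a copy cannot be told apart from Ifitm3 here.

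Isg15, a ubiquitin-like protein joined to other proteins during the interferon response, read 1.55 with AZD0156, 2.10 with KU55933, 2.28, 1.83 and 1.91 with galactose and 1.86 in the Control. These signals were near the floor, at percentiles from 8.67 with AZD0156 to 22.5 on galactose replicate 1 among the gene-linked probe sets. The AZD0156 array was again the lowest, at -0.46 from galactose (95% interval -1.08 to 0.17, adjusted p = 0.622) and -0.55 from KU55933 (95% interval -1.32 to 0.22, adjusted p = 0.700). KU55933 was within the galactose range. Galactose and the Control differed by 0.15 (adjusted p = 0.868).

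Irf1, a transcription factor induced by interferon gamma that binds ISRE sequences, stayed within a narrow range. It read 4.42 with AZD0156, 4.69 with KU55933, 4.49, 4.92 and 4.61 with galactose and 4.62 in the Control. AZD0156 was 0.06 below the lowest galactose array. The difference from galactose was -0.25 (95% interval -0.86 to 0.36, adjusted p = 0.808). The size of this difference depended on the scaling: it was -0.05, with the AZD0156 value inside the galactose range, once arrays were centred on their medians over the 5784 probe sets, and -0.28 when centred over all 19086. KU55933 differed from galactose by 0.01, and AZD0156 from KU55933 by -0.27 (95% interval -1.01 to 0.48, adjusted p = 0.882).

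Tap1, a subunit of the transporter that carries peptides to class I molecules, was placed differently. It read 4.02 with AZD0156, 3.40 with KU55933, 4.28, 3.66 and 4.34 with galactose and 3.35 in the Control. The AZD0156 value was inside the galactose range, and the KU55933 and Control values were below it. AZD0156 differed from galactose by -0.08 (adjusted p = 0.963), which was 0.12 with arrays centred over the 5784 probe sets and -0.11 centred over all 19086, and KU55933 by -0.70 (95% interval -1.44 to 0.05, adjusted p = 0.988). AZD0156 was 0.62 above KU55933 (95% interval -0.30 to 1.54, adjusted p = 0.726). Against the Control, galactose was 0.74 higher (95% interval -0.01 to 1.49, adjusted p = 0.389). Thus B2m and Tap1, both needed for class I display, lay on the same side of galactose in the Control and on opposite sides with KU55933.

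Of the 5 probe sets not used in the choice, 4 were below all 3 galactose arrays with AZD0156 and not with KU55933, namely Isg15, Irf1 and both of Ifitm3. Counted by gene it was 3 of 4. Isg15 has this placement near the floor of the signal, where the order of arrays carries little information. Over all 19086 gene-linked probe sets this placement was found for 19.6%, and over the brighter 5784 for 34.5%, so the share depends on signal level. With arrays centred on their medians over the 5784 probe sets it was 3 of 5, without Irf1, against 8.44% of the 19086 and 17.8% of the 5784. This centring uses the brighter probe sets and shifts the others. Over the 19086, AZD0156 was then below all galactose arrays for 14.9% and above for 46.3%, against 29.9% and 26.2% uncentred. The 8.44% is therefore not an even baseline for dim probe sets such as these 5. Centred over all 19086, the placement of AZD0156 below and KU55933 not was found for 4 of 5 against 21.4%, a setting chosen after seeing the data. In limma, 0 of the 5 probe sets were called in any of the 6 comparisons. Of all 19086 probe sets, 0.0% were called with either inhibitor against galactose or between the inhibitors, 0.362% for galactose, 0.0105% for AZD0156 and 0.0472% for KU55933 against the Control. At an unadjusted p under 0.05, which 10.1% of the 19086 reached for AZD0156 against galactose, there was 1 of the 5, Ifitm3 17638220. A single array with an inhibitor allowed a difference to be fixed only to about 0.60 on either side at the median, and the intervals for Isg15, Irf1 and Ifitm3 17622116 included 0.

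The genes whose signals over the 6 arrays were most like those of Ifi27 and of B2m were different genes for each. For Ifi27 these were Pex2 of peroxisome assembly, Ehd1 of endocytic recycling, the respiratory chain subunit Cox7b, Nenf and the ribosomal protein Rpl35, with Pearson correlations of 0.985 to 0.993 over 6 arrays. All were low on the AZD0156 array alone, and their differences from galactose there ran from -0.36 in Ehd1 to -1.18 in Cox7b, each smaller than the -2.51 of Ifi27. Cox7b read 7.11 with AZD0156, 8.34 with KU55933, 8.61, 8.20 and 8.07 with galactose and 8.20 in the Control. For B2m they were the mitochondrial mutase gene Mmut, Trim5, Saraf, Cdk14 and the respiratory chain subunit Ndufs5, with correlations of 0.989 to 0.993. Trim5, a restriction factor of retroviruses in primates, read 5.04 with AZD0156, 6.77 with KU55933, 6.16, 6.31 and 6.67 with galactose and 5.07 in the Control, a wider range than that of B2m. The correlation between Ifi27 and B2m was 0.62, which placed B2m at rank 1167 for Ifi27 and Ifi27 at rank 1355 for B2m. With 6 arrays from 4 conditions these correlations describe a shared order of arrays and rest largely on the AZD0156 array, and for B2m on the Control array too.

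**Figure D3:**
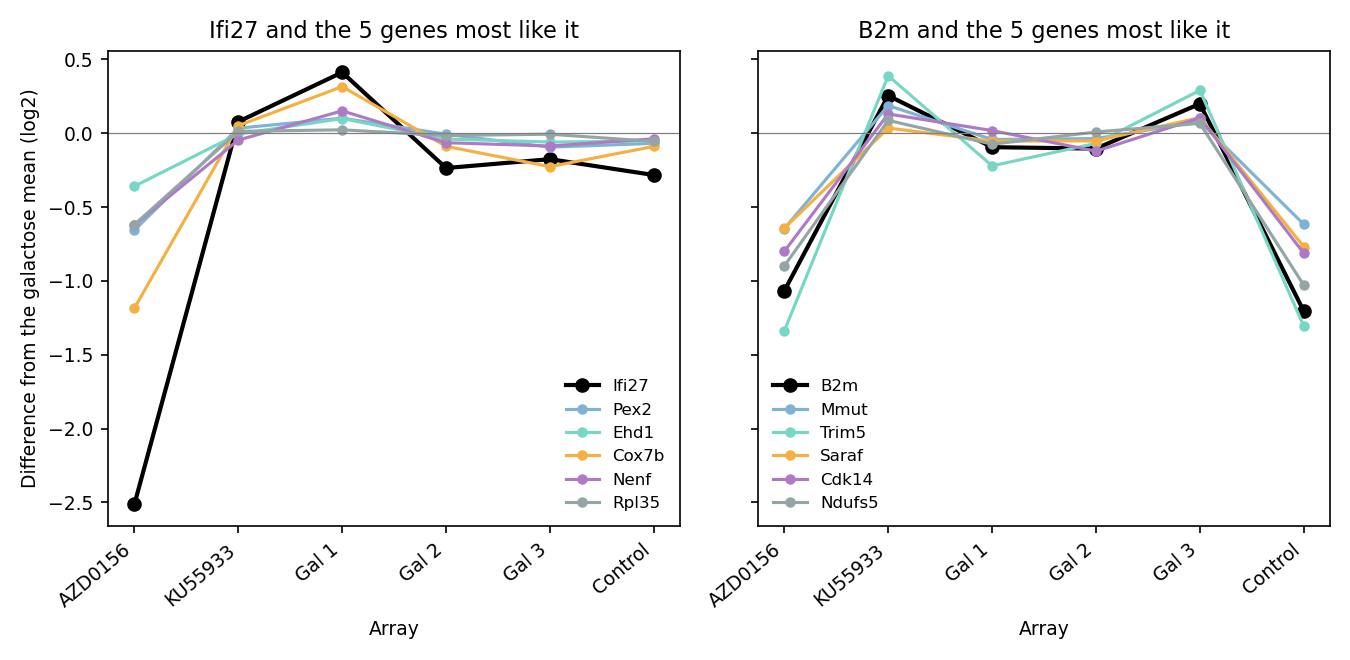
Difference in log2 signal from the galactose mean (y axis) on each of the 6 arrays (x axis) for Ifi27 with its 5 most similar genes (left) and B2m with its 5 (right), with 1 line per gene. The Ifi27 set dips on the AZD0156 array only, and the B2m set dips on both the AZD0156 and Control arrays.

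The wider pathway was read from a list of 201 interferon and antigen presentation genes. Of these, 160 were on the array in a probe set with 1 symbol, and 32 passed the filter. Leaving out Ifi27 and B2m, 30 remained. The median difference of these 30 was -0.39 for AZD0156 against galactose, beside -0.18 for all 5784 probe sets, and 0.05 for KU55933 against galactose, beside 0.05. For galactose against the Control it was 0.02, beside -0.02. Of the 30, 15 were below all 3 galactose arrays with AZD0156 (46.6% of the 5784 probe sets were), and 10 were so with AZD0156 and not with KU55933 (34.5% of the 5784). The 10 were thus close to the share of all probe sets. With no filter, 31 of 158 list genes were placed so, against 19.6% of the 19086, and their median for AZD0156 against galactose was -0.09, beside -0.02. Leaving out Ifitm2, Gbp5, Samd9l and Socs3, which reached 5 on 1 array only, the median of the other 26 tested genes was -0.35 and 8 were placed so. In limma, 0 of the 30 were called with either inhibitor against galactose or between the inhibitors (0.0% of the 5784), and 0 with AZD0156 (0.207%) or KU55933 (0.156%) against the Control. Without galactose replicate 1, limma called 11 of the list for AZD0156 against galactose (18.2% of the 5784 probe sets), 5 for KU55933 against galactose (7.59%) and 6 between the inhibitors (13.9%). At an unadjusted p under 0.05, 5 were lower and 1 was higher with AZD0156 than with galactose, where 12.4% and 1.33% of the 5784 were. Gbp5 and Ifitm2, each admitted by 1 array only, are in these 5 and in the 11 and 6 above. Those counts are therefore descriptions and not support.

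No interferon ligand passed the filter, and the highest, Ifnl3, reached 4.62. Of the receptors, kinases and signal transducers, 11 were on the array and 5 were tested. The receptor chains Ifnar1 and Ifngr2 and the kinase Jak1 were not below the galactose range on either inhibitor array. Il10rb, a chain of the interferon lambda and interleukin 10 receptors, read 6.10 with AZD0156, 6.78 with KU55933, 6.51, 6.77 and 6.87 with galactose and 6.74 in the Control (AZD0156 against galactose -0.62, adjusted p = 0.355). Stat3, a transducer of interleukin 6 and also of interferon signals, had the largest galactose difference of the list. It read 7.23 with AZD0156, 7.55 with KU55933, 7.53, 7.68 and 7.89 with galactose and 5.61 in the Control. Stat3 was 2.09 higher on the galactose arrays than in the Control (adjusted p = 0.0232, and 0.0962 without galactose replicate 3). With AZD0156 it lay 0.47 below galactose (adjusted p = 0.480).

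Among regulatory factors, 2 were tested. Irf2, which competes with Irf1 for the same sites, read 5.04 with AZD0156, 5.52 with KU55933, 5.54, 5.28 and 5.14 with galactose and 6.39 in the Control, and its difference of -1.08 for galactose against the Control had an adjusted p of 0.0660. Irf2bpl, named for its likeness to an Irf2-binding protein, was 5.84 with AZD0156, above the 4.86, 4.87 and 5.25 of galactose, and 5.84 in the Control as well. Of 13 sensors and adaptors on the array, Mavs and Trim25 were tested, and neither inhibitor took them outside the galactose range.

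Besides Ifi27, 69 interferon-induced effectors were on the array. With no filter, their median difference was -0.13 for AZD0156 against galactose and -0.02 for KU55933, beside -0.02 and 0.01 over all 19086 probe sets. Gbp5, a guanylate-binding protein, was next to Ifi27 in size. It read 2.60 with AZD0156, 4.35 with KU55933, 4.54, 5.44 and 4.96 with galactose and 4.13 in the Control. AZD0156 was 2.38 below the galactose mean, and KU55933 was also below all 3 galactose arrays, by 0.63 from their mean. Gbp5 passed the filter through galactose replicate 2 alone, so that its difference is given with no test. Its relative Gbp2 read 4.82 with AZD0156, 5.04 with KU55933, 5.11, 5.62 and 5.38 with galactose and 4.54 in the Control, with the Control and not AZD0156 as the lowest.

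Ifitm2, a relative of Ifitm3, had the Ifitm3 pattern with a high Control. It read 2.29 with AZD0156, 4.05 with KU55933, 3.88, 4.44 and 3.73 with galactose and 5.37 in the Control, which alone took it past the filter. AZD0156 was 1.73 below galactose, 1.76 below KU55933 and 3.08 below the Control, given with no test since the Control value admitted the gene. Its promoter holds the same GAAAAGGAAA letters as Ifi27 and Ifitm3, at -33 to -24. An ISRE core was also present in Gbp5 at -56 to -47 and in Gbp2 at -31 to -22. Both of those genes were below all galactose arrays with KU55933 as well, unlike Ifi27. Signals of Ifitm2 and Ifitm3 cannot be fully separated where the copies are alike.

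Ifi27l2b, a paralogue of Ifi27, did not repeat the Ifi27 pattern. It read 5.93 with AZD0156, 7.68 with KU55933, 6.90, 6.07 and 6.01 with galactose and 5.77 in the Control. Here the KU55933 array stood apart on the high side, at 1.35 above galactose (95% interval 0.46 to 2.24, adjusted p = 0.992), and AZD0156 was only 0.08 below the lowest galactose array. The gap between the inhibitors was -1.75 (95% interval -2.84 to -0.66, adjusted p = 0.314). Socs3, a feedback inhibitor of Janus kinases, read 4.0 with AZD0156, 5.40 with KU55933, 4.36, 4.46 and 4.93 with galactose and 4.47 in the Control, and passed the filter through the KU55933 array alone. Ifi30, a thiol reductase of the antigen processing compartment, read 4.70 with AZD0156, 5.71 with KU55933, 5.32, 5.48 and 5.36 with galactose and 5.38 in the Control (AZD0156 against galactose -0.68, adjusted p = 0.267). These 3 were the genes of the 30 with AZD0156 below and KU55933 above all galactose arrays, a placement found in 12.8% of the 5784 probe sets.

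Ly6e, a membrane protein, had the widest spread of the 32 within galactose, and read 4.43 with AZD0156, 4.80 with KU55933, 4.04, 6.32 and 6.0 with galactose and 6.92 in the Control. Galactose replicate 1 was thus lower than either inhibitor array for this gene. The mean of the 10 genes listed as lens epithelium markers was 6.59 with AZD0156, 6.57 with KU55933, 6.40, 7.05 and 7.19 with galactose and 7.39 in the Control, again lowest in galactose replicate 1. These markers did not move together: galactose against the Control gave 2.21 for Pdpn and -2.43 for Aqp1. Their mean is therefore not a measure of epithelial content. The part of epithelial content in the interferon genes was not tested. Lgals3bp, a secreted glycoprotein, read 4.6 with AZD0156, 4.49 with KU55933, 4.56, 5.56 and 5.44 with galactose and 5.95 in the Control. Shisa5 was 0.48 below galactose with AZD0156 (adjusted p = 0.403).

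In class I antigen presentation 37 of 47 listed genes were on the array in a probe set with 1 symbol. Of these, 8 were tested, B2m among them. The chaperone Calr was the nearest to B2m in size with AZD0156. It read 8.29 with AZD0156, 9.13 with KU55933, 8.77, 9.61 and 9.74 with galactose and 8.80 in the Control, and AZD0156 was 1.08 below galactose (adjusted p = 0.324). Its partners Canx and Pdia3 did not fall below the galactose range with AZD0156, at 7.65 and 8.26. Psme1, a subunit of the proteasome activator, read 4.90 with AZD0156, 4.58 with KU55933, 5.18, 5.33 and 5.40 with galactose and 6.50 in the Control. It was 1.2 lower on the galactose arrays than in the Control on the log2 scale (adjusted p = 0.0422). This call was lost under 4 alternatives: without galactose replicate 2 (adjusted p = 0.119) or 3 (0.120), with no filter (0.0950) and with no trend on the mean signal (0.0524). Psmb10, an immunoproteasome subunit, read 4.66 with AZD0156, 5.07 with KU55933, 5.43, 4.97 and 4.70 with galactose and 4.98 in the Control, and its AZD0156 value was 0.04 below the lowest galactose array. Stat3 and Psme1 were the 2 of the 32 tested list genes called for galactose against the Control, 1 higher and 1 lower, where 1.61% and 1.26% of the 5784 were called.

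**Figure D4:**
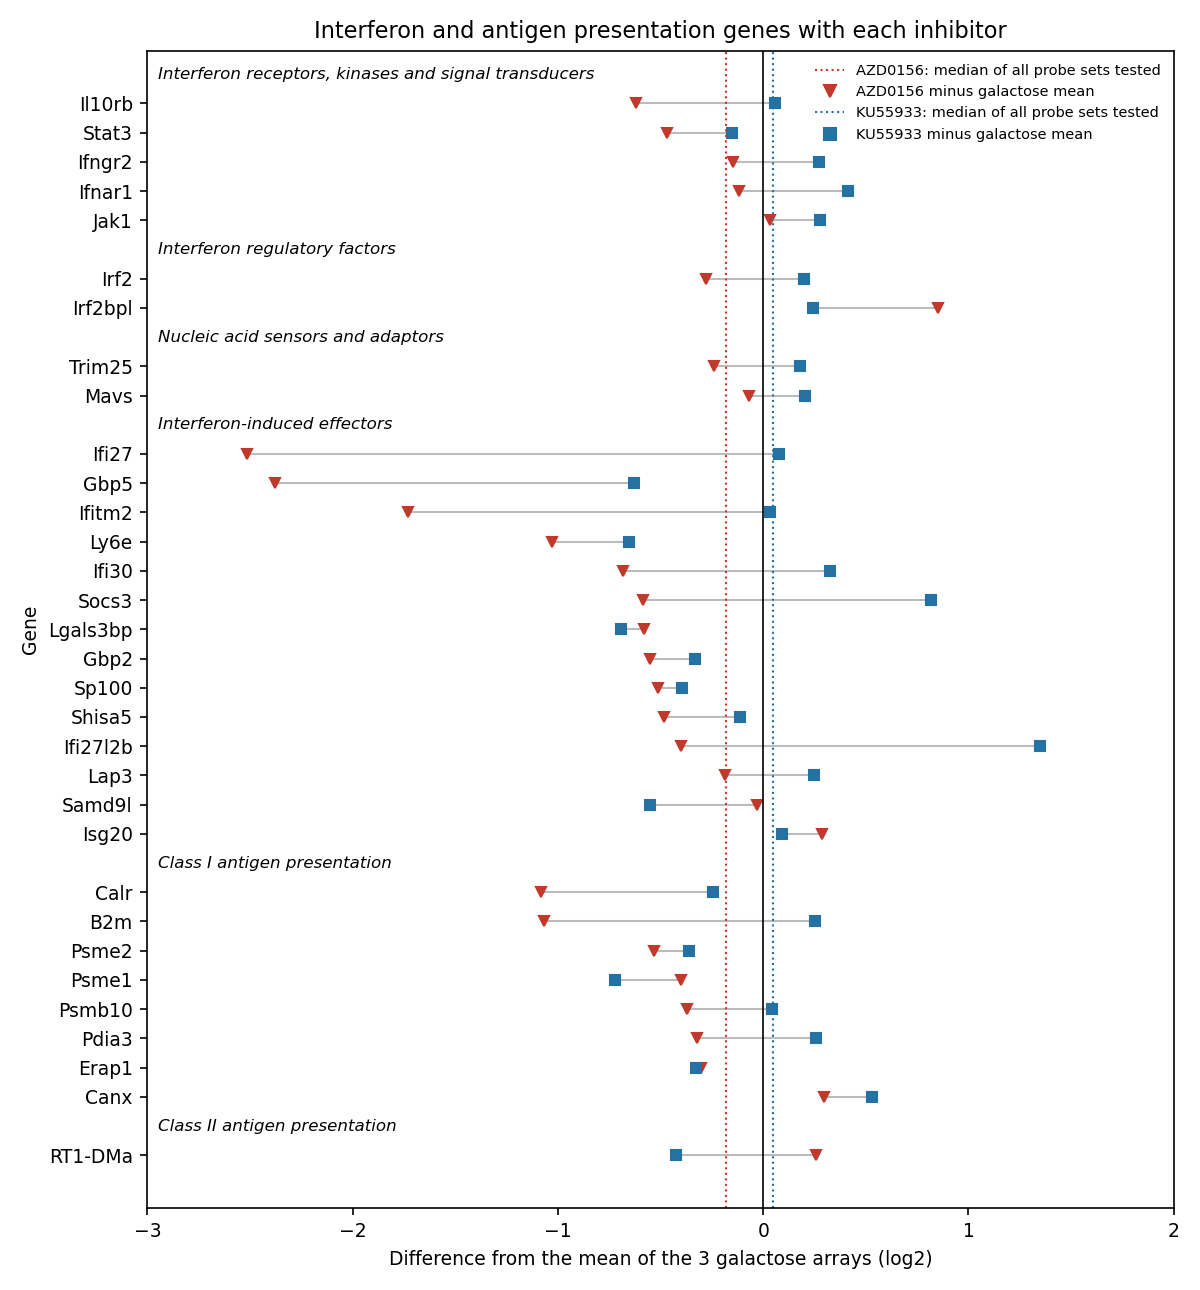
Difference in log2 signal from the galactose mean (x axis) for AZD0156 (red triangles) and KU55933 (blue squares) in the 32 tested interferon and antigen presentation genes (y axis), grouped by role. Dotted lines mark the medians over all 5784 probe sets tested, -0.18 for AZD0156 and 0.05 for KU55933. Ifi27, Gbp5 and Ifitm2 lie farthest left with AZD0156, at -2.51, -2.38 and -1.73.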

How the data were processed

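RNA from lenses was measured on 6 arrays. The deposited values are log2 signals, which the authors made in R by Robust Multi-array Average normalization of all arrays together. They were used as deposited. Of 36685 probe sets, 19086 were linked to a gene in the platform annotation, 18511 with 1 symbol and 575 with several, which name no gene here. As in the methods, a probe set needed a value of 5 on at least 1 array, which 5784 reached. Signals have no depth, and precision is limited by the number of arrays.

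The comparisons were run in limma 3.58.1 (R 4.3.3) as 1 fit of 4 group means with a trend on the mean signal (2 residual and 4.97 prior degrees of freedom). Only the 3 galactose arrays give a spread, which a lone array of another group was assumed to share. Benjamini-Hochberg adjustment ran over every probe set of a fit, with a threshold of 0.05. Alternatives were no filter, a mean of at least 6, centred arrays, no trend, robust moderation and leaving out each galactose array. Centring over all gene-linked probe sets, and leaving out genes over 5 on 1 array only, were added after seeing the data.

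The 6 genes and the lists were chosen with earlier results of these data known. Besides the 6, the genes named are the 4 list members with the largest difference in each comparison, those called, those below all galactose arrays with AZD0156 and not with KU55933, and the 5 tested genes of highest Pearson correlation with Ifi27 or B2m. For list genes with several probe sets, the brightest on average stands for the gene. Gbp2, Irf2bpl, Tapbp, RT1-CE10, RT1-CE16, Ifnl3, Mavs, Trim25, Ifnar1, Ifngr2, Jak1, Canx and Pdia3 were added after their values were seen. So were the markers Fcer1g, Lyz2, Cd68, Cd14, Pdpn and Aqp1.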

Additional observations from a re-analysis of the deposited data

Results flagged for a closer look

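B2m lay on opposite sides of all 3 galactose arrays with the 2 inhibitors, at 8.45 with AZD0156 and 9.77 with KU55933 against 9.42, 9.41 and 9.72 with galactose. The difference between the inhibitors was -1.32 on the log2 scale. It was not tested, because B2m was chosen on these arrays and each inhibitor has 1 array. AZD0156 below and KU55933 above all galactose arrays was found for 12.8% of the 5784 probe sets tested.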

How the results depend on the processing

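Replicates exist for galactose alone, and the inhibitor and Control values have no measured spread. No paired analysis was possible because only galactose has replicates and no other group shares their numbers. Galactose against the Control had 166 probe sets and 2 interferon genes called. These were 69 and 1 with no filter, 85 and 1 with a mean of at least 6, and without a trend the interferon genes were 1. AZD0156 against the Control had 12 probe sets called, 6 higher and 6 lower, and 2 with no filter, 5 with a mean of at least 6, 24 with centred arrays (16 higher and 8 lower), 37 with no trend and 20 with robust moderation. Of the interferon genes 0 were called there and 1 with no trend, Ifitm2. The Control array alone took Ifitm2 past the filter, so this call is no support for a difference from the Control. KU55933 against the Control had 9 called, 8 higher and 1 lower, and 18 with centred arrays (11 higher and 7 lower), with 0 and then 1 interferon gene, Psme1.

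Leaving out 1 galactose array moved most counts, with the highest without replicate 1, where the prior degrees of freedom were 108. Over these fits the probe sets called ran from 6 to 1642 for galactose against the Control (interferon genes 0 to 11), 0 to 1055 for AZD0156 against galactose (0 to 11), 0 to 439 for KU55933 against galactose (0 to 5), 0 to 804 for AZD0156 against KU55933 (0 to 6), 0 to 1400 for AZD0156 against the Control (0 to 10) and 0 to 1113 for KU55933 against the Control (0 to 12). The cause was not tested beyond this change in the moderated spread. Some of the interferon counts include genes admitted by 1 array only, among them Gbp5 and Ifitm2, and are no support. For single genes, 394 of the values under alternatives kept their side of the threshold or stayed within 1 SD, 24 passed it, 5 lost it and 6 moved by more than 1 SD. With centred arrays 6 of 30 interferon genes were below all galactose arrays with AZD0156 and not with KU55933, where 17.8% of the 5784 probe sets were.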

Other observations

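A pair of class I heavy chain genes, the partners of B2m, had their highest signals on the AZD0156 array, where B2m was low. Of 18 class I RT1 genes with a probe set of 1 symbol, all under the filter, 4 were above and 5 below all 3 galactose arrays with AZD0156. The listed heavy chain genes RT1-A1, RT1-A2, RT1-A3 and RT1-Aw2 had no such probe set, so their signal is not covered here. Over all 19086 gene-linked probe sets these shares were 26.2% and 29.9%, and both counts were near them. The median difference of the 18 was -0.17, beside -0.02 over the 19086. RT1-CE10 read 4.41 with AZD0156, 2.55 with KU55933, 2.89, 3.40 and 2.67 with galactose and 3.09 in the Control. RT1-CE16 read 4.41 with AZD0156, 2.89 with KU55933, 3.18, 2.86 and 2.36 with galactose and 3.05 in the Control. The AZD0156 array was above the galactose mean by 1.43 for RT1-CE10 and 1.61 for RT1-CE16, with an adjusted p of 0.330 for each in limma over 19086 probe sets. Many RT1 genes are close copies of each other, so that the 2 probe sets may read the same transcripts, and both were chosen after their values were seen. Tapbp, the tapasin gene, which bridges Tap1 and class I molecules, read 3.61 with AZD0156, 4.49 with KU55933, 4.69, 4.6 and 4.91 with galactose and 4.13 in the Control. AZD0156 was the lowest of the 6 arrays (AZD0156 against galactose -1.12, adjusted p = 0.330), and this gene too was chosen after its values were seen.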
